A study of Mus musculus with 3 samples.

Results

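Small annotated coding sequences (CDSs) encode the shortest proteins of the cell, and their ribosome footprints were examined in mouse primary cortical neurons. A gene was included when the longest transcript, of those listed with both UTRs and a CDS, coded over at most 300 nucleotides (nt) from start to stop codon. Of 20758 protein-coding genes, 881 met this limit. Genes of cytosolic and mitochondrial ribosomal proteins and of respiratory chain subunits, recognised by symbol, were left out (52 genes), which gave 829 small CDSs, or 3.99% of all genes. The neurons were grown in Neurobasal medium with B27 and Glutamax and received no drug (WT), 2 min of cycloheximide (Chx), or 2 min of harringtonine followed by a cycloheximide pulse (Harr). Each library was made from 3 pooled dishes, and cycloheximide was present at 100 μg per ml in the wash and in the lysis buffer for every library, including WT. There was 1 library per treatment. Every difference below therefore describes these libraries, has no replicate check and carries no p-value. Standard errors (SE) and the intervals of shares, densities and levels cover counting error only. Intervals of medians come from the spread between genes, and none of the intervals covers the spread between libraries.

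Ribosome profiling sequences the mRNA fragment that a ribosome protects from nuclease. Cycloheximide arrests elongating ribosomes where they stand. Harringtonine stops a ribosome at its first peptide bonds, and ribosomes further along run off the CDS, so that a harringtonine library is used to mark start sites. Short CDSs encode many well-known small proteins of neurons, among them G protein γ subunits, β-thymosins, calmodulin-binding peptides and subunits of membrane complexes. In the deposited counts each read was placed at its 5′ end, which lies upstream of the codon in the ribosome. A ribosome on the start codon is therefore counted in the 5′ UTR, and a short CDS loses a larger part of its length to this shift than a long one.

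The start codon windows of the small CDSs on which the results turn are shown first, each as the 15 bases before and the 15 bases from the start codon (GENCODE M21 transcripts, mm10). Capitals mark the base at −3, the ATG and the base at +4, the positions of the Kozak context. The first 6 belong to CDSs among the 10 with the most reads, and the others to members with the highest or lowest ratios between libraries or the shortest CDSs.
Nnat: cccactttcggaAccATGGccgcagtggca
Mllt11: tgctaacaggggAtcATGAgggaccctgta
Gng3: tgctgttacttcAggATGAaaggggagacc
Gng2: ccatccaacgctCcaATGGccagcaacaac
Hsbp1: ctgggcaccgggGagATGGccgagacggac
Tmsb4x: tgttaacattccGcaATGCtccttccagca
Anapc11: acaggctctgttGtcATGAaggtgaaaatt
Wars: cctcggtcctagAagATGGcagacatgccc
Tbca: ggcgccttagggAccATGGccgatcctcgc
Selenow: atgcgacgtgcaGctATGGcgctcgccgtt
Sln: ccagacattctgAagATGGagaggtctact
From start to stop codon, with introns, these CDSs span chr2:157560189-157561634 (Nnat, plus strand), chr3:95220185-95220457 (Mllt11, minus), chr19:8838143-8838652 (Gng3, minus), chr14:19875807-19891372 (Gng2, minus), chr8:119344576-119345731 (Hsbp1, plus) and chrX:167207501-167208325 (Tmsb4x, minus). Anapc11 lies at chr11:120599260-120605426 (plus), Wars at chr12:108884340-108888486 (minus), Tbca at chr13:94788950-94815168 (plus), Selenow at chr7:15919863-15922280 (minus) and Sln at chr9:53853473-53853568 (plus).

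The 829 CDSs had a median length of 237 nt, against 1149 nt for all genes, and the shortest had 57 nt. Their 5′ UTRs were shorter as well, with a median of 106 nt against 177 nt. A single uninterrupted coding segment was annotated for 136 of them (16.4%), against 14.7% of all genes. In 517 genes every annotated coding transcript had a CDS of at most 300 nt. The remaining 312 genes also carried a longer CDS on another transcript, so that the small CDS is 1 isoform among several. An overlap of the 3′ UTR with a coding segment of the same strand was found in 235 of these 312 genes (75.3%), in 64 of the 517 (12.4%) and in 9.4% of all genes. More than 10% of the 25-nt words of the transcript occurred in another gene for 267 members (32.2%), against 22% of all genes, and the counts of such genes are uncertain.

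Of the 829 small CDSs, 523 had at least 1 read (63.1%, against 78% of all genes) and 306 had none in any library. At least 100 CDS reads over the 3 libraries, the minimum for a ratio, were found for 300 members (36.2%, against 55.1% of all genes). At least 1000 were found for 115. The 306 CDSs without a read included 45 defensins of the Defa and Defb families, 18 secretoglobins (Scgb), 14 keratin-associated proteins (Krtap) and 10 vomeronasal receptors (Vmn). Also unread were 51 genes with Gm symbols, 33 with Rik symbols and 103 outside the symbol families counted. In all, the small CDSs accounted for 370881 (Chx), 60107 (Harr) and 339189 (WT) reads. These are 1.84% (Wilson 95% interval 1.83 to 1.84), 1.59% (1.58 to 1.61) and 2.04% (2.03 to 2.04) of all CDS reads, with the lowest share in Harr and the highest in WT. Without the 10 most read members the shares were 1.00%, 0.813% and 1.08%, so that 10 genes carried a large part of them.

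The library totals were 35722483 reads (Chx), 9754412 (Harr) and 30219197 (WT), so that Harr was the shallowest, and 3 counts correspond to 0.084, 0.308 and 0.0993 reads per 1000000 (CPM). The neuronal markers Map2, Tubb3, Rbfox3 and Snap25 summed to 3313, 3320 and 3513 CPM in Chx, Harr and WT. Map2 made up most of these sums and was highest in Harr (2075, 2904 and 2231 CPM), while Tubb3 (894, 270 and 827 CPM), Snap25 (330, 140 and 440 CPM) and Rbfox3 (14.1, 5.54 and 14.7 CPM) were lowest there. The astrocyte markers Gfap, Aqp4, Aldh1l1 and Slc1a3 summed to 195, 78.9 and 213 CPM, those of microglia to 2.83, 0.103 and 1.82 CPM and those of oligodendrocytes to 6.52, 2.16 and 5.73 CPM. Mog and Mobp were at 0 reads in all 3 libraries, and P2ry12 was at 0 in Chx and Harr and at 4 reads in WT. All 3 glial sums were lowest in Harr, as were 3 of the 4 neuronal markers. In bulk libraries fewer cells of a type and fewer footprints per cell cannot be told apart, and the part of glia in the results below was not tested. Relative to all CDS reads, the reads of the 13 mitochondrially encoded genes were higher in Harr by 1.38 (log2) than in Chx and by 1.31 than in WT.

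The most abundant small CDS was that of Tmsb4x, which encodes the actin monomer-binding thymosin β4. Its CDS gathered 34943 (Chx), 15892 (Harr) and 37173 (WT) reads. Per length, in reads per kilobase and per 1000000 (RPKM), these counts are 6393.3, 10648.4 and 8039.9, and in WT no other gene of the 20758 had a higher CDS level. It was the only one of the 10 most read small CDSs with its highest RPKM in Harr. Its 153-nt CDS overlaps an annotated 5′ UTR of another transcript. The 3-nt first coding segment, which is the ATG of the window printed above, had 0 reads in every library. Most of its reads lay in the 115-nt middle segment, with 32163, 15587 and 28724 reads. The 35-nt last segment held 2780, 305 and 8449, and the 502-nt 5′ UTR only 84, 85 and 85.

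Nnat, which encodes the small membrane proteolipid neuronatin, held 33598, 4867 and 23652 CDS reads in Chx, Harr and WT, or 3823.3, 2028.3 and 3181.6 RPKM. Mllt11, expressed in developing neurons, held 20363, 1199 and 20189 reads, or 2088.0, 450.3 and 2447.2 RPKM. In Mllt11, the library treated with harringtonine was the low one and the other two lay close together. A 6-nt piece of its 5′ UTR directly before the start codon held 4012 reads in Harr, more than 3 times the Harr reads of the whole 273-nt CDS, and 1674 in Chx and 2061 in WT. Gm8797 held 28806, 2844 and 30112 reads. Of the 25-nt words of its CDS, 88.1% occur in other genes, so these reads cannot be assigned to it with certainty.

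Gng3 and Gng2 encode γ subunits of heterotrimeric G proteins, which pair with a β subunit and tether it to the membrane. Gng3 had 1159.6, 429.4 and 1535.9 RPKM in Chx, Harr and WT, and Gng2 had 1110.7, 457.1 and 1512.9 RPKM. Nrep had 1576.2, 328.4 and 1265.5 RPKM. Atp6v0e2, a membrane subunit of the vacuolar proton pump, had 829.8, 235.5 and 1010.2 RPKM. Hsbp1, which binds heat shock factor 1, had 825.7, 229.9 and 945.0 RPKM, and the dynein light chain gene Dynll2 had 745.7, 367.9 and 723.7 RPKM. In 9 of the 10 most read small CDSs Harr was thus the lowest of the 3 libraries in RPKM, while Chx and WT changed places from gene to gene. RPKM is scaled to the library total, of which CDS reads were a smaller part in Harr. All CDS reads together lay lower in Harr on this scale, by 0.55 (log2) than in Chx and by 0.51 than in WT. The same count over all genes was not made.

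**Figure D1:**
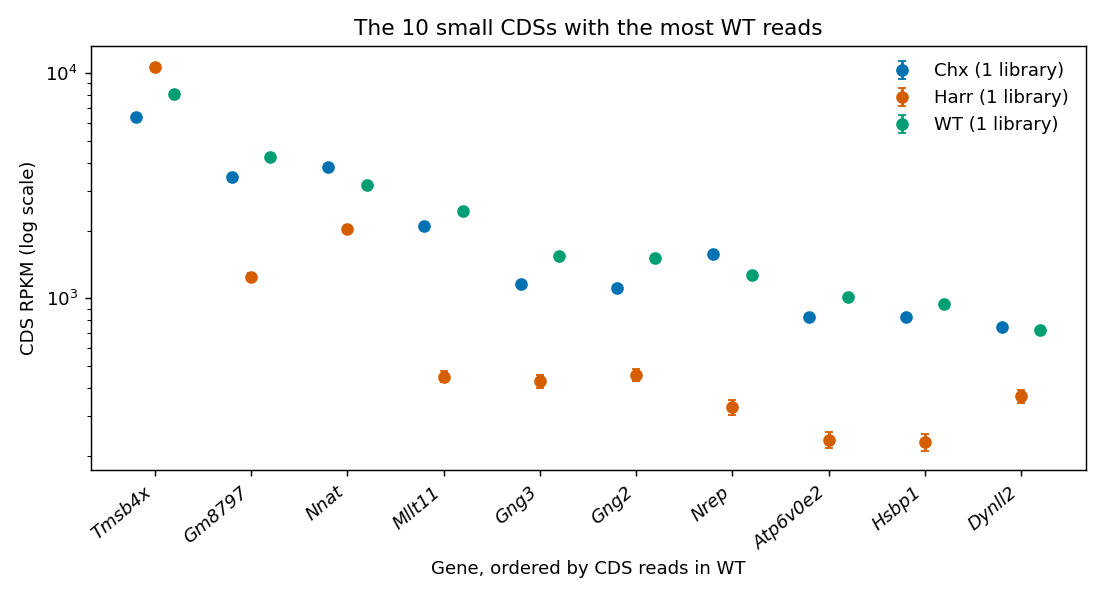
CDS level of the 10 small CDSs with the most WT reads, in RPKM on a log axis, with 1 point per library (Chx blue, Harr orange, WT green) and exact Poisson 95% intervals, which are mostly smaller than the points. Harr is the lowest point for every gene except Tmsb4x, where it is the highest at 10648.4 RPKM. RPKM is scaled to library totals, on which all CDS reads together lie lower in Harr by 0.55 (log2) than in Chx and by 0.51 than in WT.

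The CDS ratio asks whether a small CDS held a larger or smaller part of the CDS reads in one library than in another. It was computed as a log2 ratio of CDS reads, each scaled to all CDS reads of the library, and was called when it was at least 1 in size and its 95% counting interval excluded 0. Among the 300 small CDSs with enough reads, the median ratio of Harr to Chx was −0.29 (95% interval of the median −0.41 to −0.16), against −0.05 for all 11447 genes tested. The median of Harr to WT was −0.35 (−0.48 to −0.16), against 0.003, and that of Chx to WT was −0.04 (−0.09 to 0.02), against 0.03. With at least 1 read as the only minimum, which admits 523 members, the Harr medians were 0.02 and 0.01, and with at least 1000 reads −0.55 and −0.61. With an added count of 5 the Harr to Chx median was −0.14. With the library totals as scale the Harr medians were −0.84 and −0.87, and with the mitochondrially encoded reads −1.68 and −1.67. The single ratios spread far more widely than these medians, from −2.68 to 2.09 for Harr to Chx and from −3.53 to 3.497 for Harr to WT.

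Between Harr and Chx, 66 small CDSs (22%) were called lower in Harr, where 13.7% of all genes were, and 21 (7.0%) were called higher, where 4.64% of all genes were. Between Harr and WT, 76 (25.3%) were called lower in Harr and 29 (9.67%) higher, against 14.4% and 5.3% of all genes. Between Chx and WT, 6 (2.0%) were called lower in Chx and 7 (2.33%) higher, against 0.122% and 0.201%. By kind of gene these were 5 lower and 0 higher of 176 with only small CDSs, and 1 lower and 7 higher of 124 that also have a longer CDS. With at least 1000 CDS reads 1 (0.870%) was called in each direction. The split depends on the scale. With the library totals as scale, which moves every Harr to Chx ratio by −0.55 and every Harr to WT ratio by −0.51, 129 were called lower and 6 higher than in Chx, and 131 lower and 11 higher than in WT. With the mitochondrially encoded reads as scale, 237 were called lower and 0 higher than in Chx, and 226 lower and 2 higher than in WT. That scale lowers each Harr to Chx ratio by 1.38 and each Harr to WT ratio by 1.31, so that positive ratios below these sizes change sign.

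The 2 kinds of small CDS had different medians. In the genes whose every coding transcript is small, the median was −0.46 for Harr to Chx (−0.67 to −0.29, 176 genes), with 47 called lower (26.7%) and 8 higher (4.55%), and −0.56 for Harr to WT (−0.72 to −0.40). In the genes that also have a longer CDS it was −0.10 (−0.24 to 0.09, 124 genes), with 19 called lower (15.3%) and 13 higher (10.5%), and 0.075 (−0.11 to 0.18) for Harr to WT. The intervals of the 2 kinds do not overlap, but they rest on genes within single libraries, some of which share reads. The difference between the 2 kinds was not tested. The overlap of the 3′ UTR with a CDS moved with the 2 kinds. The Harr to Chx median was −0.48 (−0.72 to −0.29) in the 174 tested members whose 3′ UTR overlaps no CDS and −0.09 (−0.25 to 0.10) in the 126 whose 3′ UTR does.

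Groups of members with a common role were then described from lists of genes, whose counts of called members stand beside 13.7% lower and 4.64% higher over all genes for Harr to Chx and 14.4% and 5.3% for Harr to WT. The neuronal signalling list holds calmodulin-binding peptides, kinase inhibitors, a neuropeptide and small membrane regulators. All 14 of its members were tested, with 5 called lower and 1 higher in Harr than in Chx, and likewise 5 and 1 than in WT, and a median of −0.78 against Chx. Mllt11 was lower by 1.66 ± 0.04 (log2, SE) against Chx. Npy, the precursor of neuropeptide Y, held 2899, 233 and 2819 reads in Chx, Harr and WT and had a ratio of −1.21 ± 0.10 against Chx and −1.45 ± 0.10 against WT. Pcp4, a calmodulin-binding peptide, held 2323, 176 and 3114 reads, with ratios of −1.30 ± 0.11 and −1.998 ± 0.11. Of the words of its CDS, 95.8% occur in another gene. In Npy and Pcp4 Harr was well below both other libraries. Nnat was not called, at −0.37 ± 0.02 and −0.14 ± 0.02. The 1 member called higher was Pkia, an inhibitor of protein kinase A, with 3623, 1717 and 2368 reads and ratios of 1.34 ± 0.04 and 1.68. The first is below the 1.38 by which the mitochondrial scale lowers it. Genes named for a count of 5 or fewer, such as Pkia, were picked after their values were seen.

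Of the 12 γ subunit genes, 11 had a read and 8 were tested. Their median was −0.66 for Harr to Chx and −0.71 for Harr to WT. Gng7 was called lower in Harr against both libraries (1540, 135 and 1346 reads, −1.09 ± 0.13 and −1.17 ± 0.13). Gng3 and Gng2 were called lower against WT, at −1.33 ± 0.05 and −1.21 ± 0.05, and fell short of the limit against Chx, at −0.88 ± 0.05 and −0.73 ± 0.05. Gng4, with 2312, 388 and 2182 reads, was at −0.15 ± 0.08 and −0.35 ± 0.08. None of the 8 was called higher. Of the CDS words of Gng2, 29.2% occur in other genes, and of those of Gng3 and Gng4 2.5%.

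The 5 tested β-thymosins had medians of 0.19 against Chx and 0.27 against WT. Both lie below 0 with the library totals as scale, which lowers them by 0.55 and 0.51, and on the mitochondrial scale. The 5 are not separate counts. Tmsb15l and Tmsb15b1 have the same 68, 11 and 81 reads in their first coding segments, and the coding segments of Tmsb15b2 lie within those of Tmsb15l. Tmsb4x was called higher in Harr than in Chx, at 1.28 ± 0.01, with 0.92 ± 0.01 against WT, while on the mitochondrial scale its ratio against Chx was −0.10 and with its most read transcript 0.87. Tmsb10 was not called, at 0.67 ± 0.06 and 0.72 ± 0.06. All words of its CDS occur in other genes, and all its 2613, 777 and 2090 reads lay in the 100-nt first of its 2 coding segments. Of the 3 tested metallothioneins, which bind zinc and copper, Mt2 held 2550, 227 and 2483 reads and was called lower in Harr against both, at −1.07 ± 0.10 and −1.31 ± 0.10. Mt3, the form of the brain, held 1450, 306 and 1865 reads and was at 0.18 ± 0.09 and −0.46 ± 0.09. Mt1 held 68, 5 and 146 reads on a 114-nt isoform, beside 2403, 329 and 2914 in the 3′ UTR of that isoform, and was called lower in Harr than in WT, at −2.59 ± 0.63, and not than in Chx, at −1.22 ± 0.64. Of the S100 family, S100a10 and S100a11 were tested and none was called, and S100b held 9, 0 and 12 reads.

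Small mitochondrial proteins other than respiratory chain subunits, such as import chaperones, translocase subunits and assembly factors, formed the largest tested list, with 21 members. Between Harr and Chx 7 were called lower and 1 higher, and between Harr and WT 8 lower and 3 higher, with medians of −0.29 and −0.52. Over all genes 13.7% were called lower and 4.64% higher than in Chx, and 14.4% and 5.3% than in WT. Tomm7, a subunit of the outer membrane translocase, held 1446, 91 and 1507 reads, with ratios of −1.56 ± 0.16 and −1.90 ± 0.16. Minos1, a component of the cristae-organising complex, held 2894, 246 and 2256 reads, with −1.13 ± 0.10 and −1.05 ± 0.10. In both genes Harr was far below the other libraries. Of the CDS words of Tomm7, 43.1% occur in other genes. Timm8b, a chaperone of the intermembrane space, held 1858, 329 and 2306 reads and was not called, at −0.08 ± 0.09 and −0.66 ± 0.09. Cmc4 was called higher in Harr than in Chx with 38, 27 and 48 reads. Triap1 and Pet117 were, beside Cmc4, the members called higher than in WT.

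The list of spliceosomal and other RNA-protein particles also holds the transcription genes Gtf2h5 and Polr2l. Of its 11 tested members, 1 was called lower against Chx, 2 against WT and none higher. The 2 were Nop10, a protein of box H/ACA particles, with 2372, 163 and 2787 reads (−1.44 ± 0.12 and −1.95 ± 0.12) and 39.8% shared CDS words, and Gtf2h5, a subunit of TFIIH, at −0.96 ± 0.11 and −1.22 ± 0.11. Sf3b5 was at −0.54 ± 0.10 and −0.57 ± 0.10. Snrpg was at 0.35 ± 0.14 and −0.24 ± 0.14, and all words of its CDS occur in other genes.

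The list of ubiquitin-like modifiers and small ligase subunits also holds the proteasome subunit Sem1. Of its 7 members, 3 were called lower in Harr than in Chx and than in WT and none higher. Over all genes 13.7% and 14.4% were called lower and 4.64% and 5.3% higher. Anapc11, the RING subunit of the anaphase-promoting complex, held 2483, 88 and 1827 reads and had ratios of −2.39 ± 0.16 and −2.23 ± 0.16. The ubiquitin-like Nedd8 held 1251, 87 and 1449 reads, with −1.42 ± 0.16 and −1.91 ± 0.16. Sumo2 held 293, 13 and 416 reads on a transcript whose CDS words all occur elsewhere. Ubl5 (−0.55 ± 0.07) and Sem1 (−0.46 ± 0.11) were not called against Chx. Among 10 small membrane proteins of the endoplasmic reticulum and the vacuolar proton pump, 5 were called lower and 1 higher against either library, with the same shares of all genes beside them. Atp6v0e2 (−1.27 ± 0.06 and −1.59 ± 0.06), Tmem258, a subunit of the oligosaccharyltransferase (−1.03 ± 0.12 and −1.34 ± 0.12), and Sec61b, the β subunit of the translocon (−1.002 ± 0.12 and −1.34 ± 0.12), were lower. With median-of-ratios size factors Tmem258 and Sec61b were at −0.97 and −0.95 against Chx and no longer called, and 88.4% of the CDS words of Sec61b occur in other genes. Serp2 was the 1 called higher, with 526, 214 and 332 reads.

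Of 6 tested cytoskeletal genes, Mzt1 was the 1 called lower against Chx (−1.11 ± 0.29, and −0.90 and no longer called with an added count of 5) and Abracl, with 56, 4 and 79 reads, the 1 called lower against WT. Tbca, a tubulin-folding cofactor, was the 1 called higher against either. The dynein light chains Dynll1 and Dynll2 were not called, at −0.87 ± 0.06 and −0.47 ± 0.05 against Chx, with 58.9% of the CDS words of Dynll1 shared. The list of nucleosome-binding and cell cycle proteins also holds Serf1 and Serf2. Of its 6 tested members, 1 was called lower against Chx, 3 against WT and none higher. Cks1b, with 150, 5 and 128 reads, was called against both, and Cks2 (35, 1 and 75 reads) and Hmgn3 (149, 19 and 200 reads) against WT. With an added count of 5 Hmgn3 was at −0.95 against WT and no longer called. Of 12 tested small integral membrane proteins (Smim genes), 4 were called lower in Harr than in Chx, among them Smim13 with 731, 36 and 587 reads (−1.90 ± 0.245), and 1 higher, Smim20 with 59, 22 and 50 reads, beside 13.7% and 4.64% of all genes. Against WT 4 were called lower and none higher. Smim14 was not called, at −0.87 ± 0.08 and −0.95 ± 0.08. Over the 11 lists drawn in the plot by group, Harr to Chx medians lay between −1.07 (metallothioneins) and 0.19 (β-thymosins), beside −0.05 for all genes. Each list is small, and no difference between lists was tested.

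**Figure D2:**
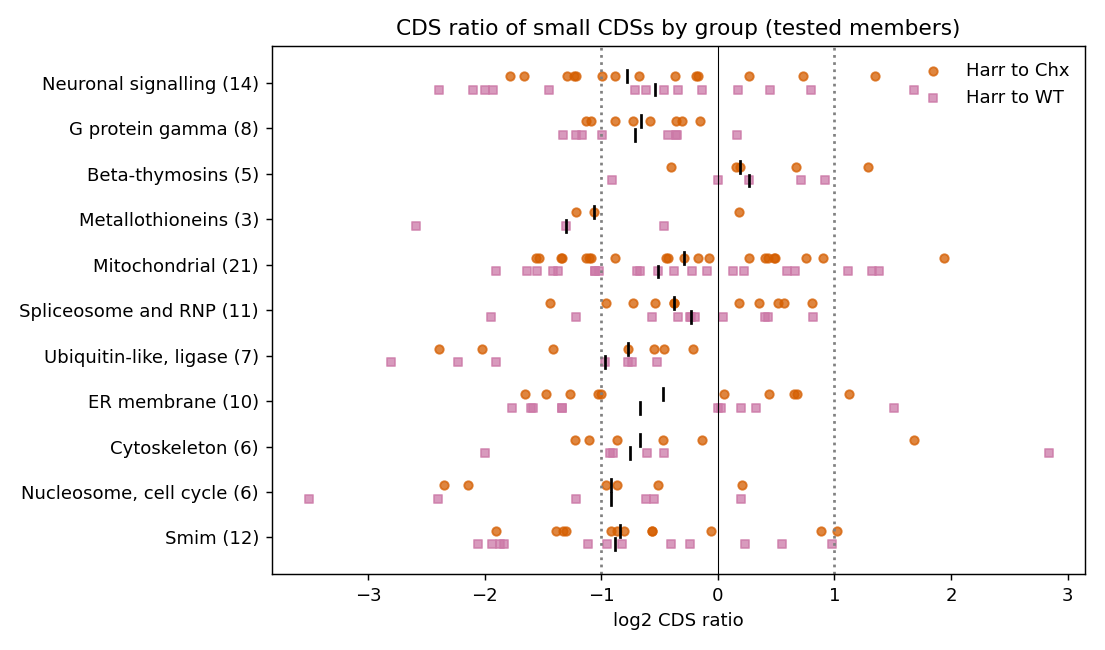
Log2 CDS ratio of Harr to Chx (orange circles) and of Harr to WT (pink squares) for each tested small CDS, by group, with the number tested in brackets, the group median as a black bar and the call limits of −1 and 1 as dotted lines. Most groups have their median below 0 and the β-thymosins have theirs above 0 on this scale. With the library totals all points would lie lower by 0.55 or 0.51, and with the mitochondrially encoded reads by 1.38 or 1.31, which puts those medians below 0.

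Of the small CDSs typical of other cell types, defensins, skin and sperm genes were at or near 0, and some chemokines and Sln were not. Of 47 defensins 45 had no read, and the 2 others summed to 1, 0 and 1 reads. Of 32 genes of keratin-associated and cornified envelope proteins 22 had none, and the rest summed to 8, 2 and 8 reads. Both sperm chromatin genes (Prm1 and Tnp1) were at 0. Of the muscle membrane micropeptides, Mrln and Mymx were at 0, Pln held 3 reads, all in WT, and Sln, the sarcolipin that inhibits the calcium pump, held 95, 11 and 65 reads on its 96-nt CDS, with a further 57, 104 and 22 in its 5′ UTR. The 13 chemokines summed to 261, 22 and 212 reads, and 5 of them had no read. Cxcl14 (174, 10 and 136 reads) and Ccl25 (57, 11 and 51) had enough reads for a ratio, and the microglial chemokines Ccl3 and Ccl4 held 6, 1 and 8 and 12, 0 and 8.

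The highest ratios of Harr to Chx among members with at least 200 reads in the pair were those of Naa20 (130, 103 and 40 reads, 2.09 ± 0.19), Selenow (722, 561 and 1611 reads, 2.06 ± 0.08) and Psmd2 (630, 379 and 399 reads, 1.69 ± 0.09). Against WT the highest were Tbca (550, 330 and 204 reads, 2.84 ± 0.13), Psmd2 (2.07 ± 0.10) and Wars (1033, 450 and 485 reads, 2.04 ± 0.09). Naa20, Psmd2, Tbca and Wars also have a longer CDS, of 567, 2727, 327 and 1446 nt. In these 4 genes the reads of the small CDS lay almost wholly in its first coding segment. The last segment of Naa20 and of Wars had 0 reads in every library, that of Psmd2 had 5, 0 and 4, and that of Tbca 5, 0 and 4. With the most read transcript in place of the longest, Wars had ratios of −0.30 and −0.35, and Naa20 of 0.66 and 0.63, so that neither was called higher. On the mitochondrial scale the Harr to Chx ratios of Naa20, Selenow and Psmd2 were 0.70, 0.67 and 0.31 and the Harr to WT ratios of Psmd2 and Wars 0.76 and 0.72, none of them called.

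Selenow encodes a selenoprotein, in which a TGA codon is read as selenocysteine. It was 1 of the 2 members with an in-frame TGA inside the CDS, the other being Selenok. The windows show the 12 bases before the TGA and up to 15 after it, with the TGA in capitals.
Selenow: tattgtggagctTGAggctataagcccaag
Selenok: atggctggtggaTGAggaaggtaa
In Selenow the TGA is codon 13 of 89, in the second of 5 coding segments. The first segment, of 29 nt, held 61 (Chx), 0 (Harr) and 32 (WT) reads, and the second, of 25 nt, held 14, 1 and 65. The third segment, of 54 nt, held 150 (Chx), 470 (Harr) and 496 (WT) reads. Most of the 561 Harr reads of the CDS thus fell in the segment after the TGA, while in Chx and WT the fourth segment held the most, with 276 and 701 reads. Its 5′ UTR held 2800, 1675 and 1295 reads, and Selenow also had 1 of the 3 lowest Chx to WT ratios, at −1.44 ± 0.07. In Selenok the TGA is codon 92 of 95, and the ratios were not called, at 0.44 ± 0.06 against Chx and 0.005 ± 0.06 against WT. Of the words of its CDS, 89.3% occur in other genes.

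The lowest ratios of Harr to Chx were those of Rhbdd2 (325, 9 and 126 reads, −2.68 ± 0.475), BC048507 (269, 8 and 434 reads, −2.57 ± 0.50) and Anapc11. Against WT they were those of BC048507 (−3.53 ± 0.50), Sumo2 (−2.80 ± 0.40) and AC170998.1 (169, 8 and 197 reads, −2.40 ± 0.51). BC048507 and AC170998.1 had no read in the 5′ UTR in any library. Of the CDS words of BC048507 16.3% occur in other genes, of those of AC170998.1 28.4%, and the start windows of BC048507 and Dynll1, each with a CDS of 270 nt, differ at 2 of 30 bases, so that these reads are uncertain. Their Harr counts of 8 make the size of these ratios imprecise. Between Chx and WT the lowest beside Selenow were Scrg1 (84, 6 and 181 reads, −1.38 ± 0.19) and Mt1 (−1.37 ± 0.21). With its most read transcript Mt1 was at −0.58 and no longer called. The highest were Srp19 (209, 46 and 68 reads, 1.34 ± 0.20), Flot2 (485, 71 and 175 reads, 1.19 ± 0.13) and Pdrg1 (517, 85 and 191 reads, 1.16 ± 0.12), all of which have a longer CDS on another transcript. With its most read transcript, Srp19 was at 0.24 and no longer called.

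Over the small CDSs the median Harr ratio stepped down with the length of the CDS. The median of Harr to Chx was 0.11 for CDSs up to 150 nt (−0.40 to 0.85, 29 genes), −0.14 for lengths above 150 and up to 200 nt (−0.83 to 0.12, 46 genes), −0.30 for up to 250 nt (−0.46 to −0.13, 114 genes) and −0.45 for up to 300 nt (−0.69 to −0.23, 111 genes). Neighbouring classes overlap in their intervals. Beyond the limit the median was −0.70 up to 400 nt and −0.75 up to 600 nt, and it then turned upward, to −0.54 up to 1200 nt, −0.07 up to 2000 nt and 0.45 above that. The ratio to WT went from 0.42 in the shortest class to −0.51 in the class up to 300 nt and −0.93 in the next, up to 400 nt, and turned upward 1 class earlier, at −0.805 up to 600 nt, to reach 0.53 in the longest CDSs. The ratio of Chx to WT lay between −0.14 and 0.08 in every class. Across the 300 small CDSs, Spearman's rho between length and ratio was −0.17 for Harr to Chx and −0.21 for Harr to WT, a weak relation in single libraries whose points share depth and scale. In the 176 genes with only small CDSs both were −0.16. Their medians in the 4 classes were 0.186, −0.171, −0.458 and −0.608 for Harr to Chx. For Harr to WT they were 0.197, −0.181, −0.609 and −0.598, without a step down at the last class. In the genes that also have a longer CDS the medians of the 4 classes did not step down in order for Harr to Chx, at 0.087, −0.12, −0.005 and −0.23, and for Harr to WT they were 0.54, 0.096, 0.048 and −0.069.

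**Figure D3:**
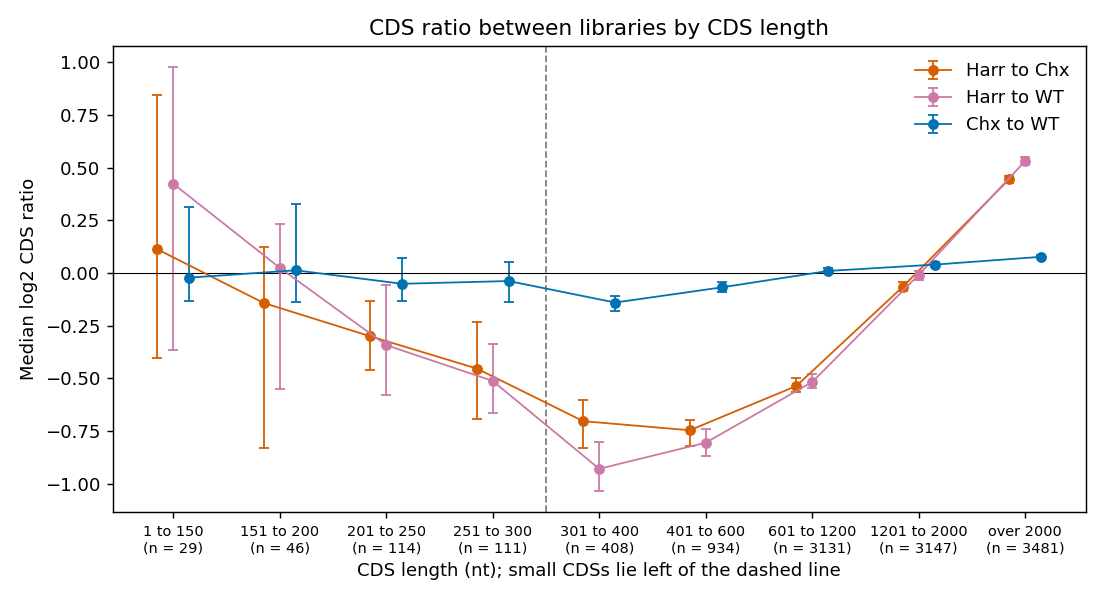
Median log2 CDS ratio in 9 classes of CDS length, in nt, for Harr to Chx (orange), Harr to WT (pink) and Chx to WT (blue), with the distribution-free 95% interval of the median and the number of genes tested. The 4 classes of small CDSs, left of the dashed line, step down from 0.11 to −0.45 for Harr to Chx, and on the scale of mitochondrially encoded reads all Harr medians would lie lower by 1.38 or 1.31.

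Just inside the limit, at 300 nt, Smim14, Lamtor4 and Dpy30 had Harr to Chx ratios of −0.87, −0.002 and −1.58. Just outside it, at 303 nt, Cops9 was at −1.34 and Timm10b and Gm45799 were at −0.16. The last 2 have the same counts in every library (877, 146 and 854 reads). The 3 shortest tested CDSs were B230217C12Rik (78 nt), Gm43552 (90 nt) and Sln (96 nt). They held 115, 45 and 123 reads, 659, 229 and 360 reads, and 95, 11 and 65 reads, with Harr to Chx ratios of 1.08 ± 0.25, 0.90 ± 0.11 and −0.63 ± 0.45. On the mitochondrial scale B230217C12Rik was at −0.31, Gm43552 lies below 0 as well, and the 95% interval of Sln includes 0 on the scale used here. The 75-nt first coding segment of Gm43552 is also that of Smim14, and its 646, 213 and 344 reads are counted in both genes.

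The comparison of 5′ UTR and CDS reads asks where on the transcript the footprints of each library lay. In Harr the 5′ UTR held 51.2% of the reads of the small CDS genes (Wilson 95% interval 51.0 to 51.4), the CDS 32.8% and the 3′ UTR 16.1%. In Chx these shares were 14.8% (14.7 to 14.8), 64.9% and 20.4%, and in WT 10.4% (10.3 to 10.5), 68.1% and 21.4%. Over all genes the 5′ UTR held 33.5% in Harr, 8.71% in Chx and 6.14% in WT. The Harr library thus had more than 3 times the 5′ UTR share of the other libraries in both sets, and the small CDS genes had a higher share than all genes in each library. Per nucleotide, the 5′ UTRs of the small CDS genes were 1.97 times as dense in reads as their CDSs in Harr (1.95 to 1.99), 0.286 times in Chx (0.284 to 0.288) and 0.192 times in WT (0.191 to 0.194). For all genes these values were 3.36, 0.608 and 0.419.

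**Figure D4:**
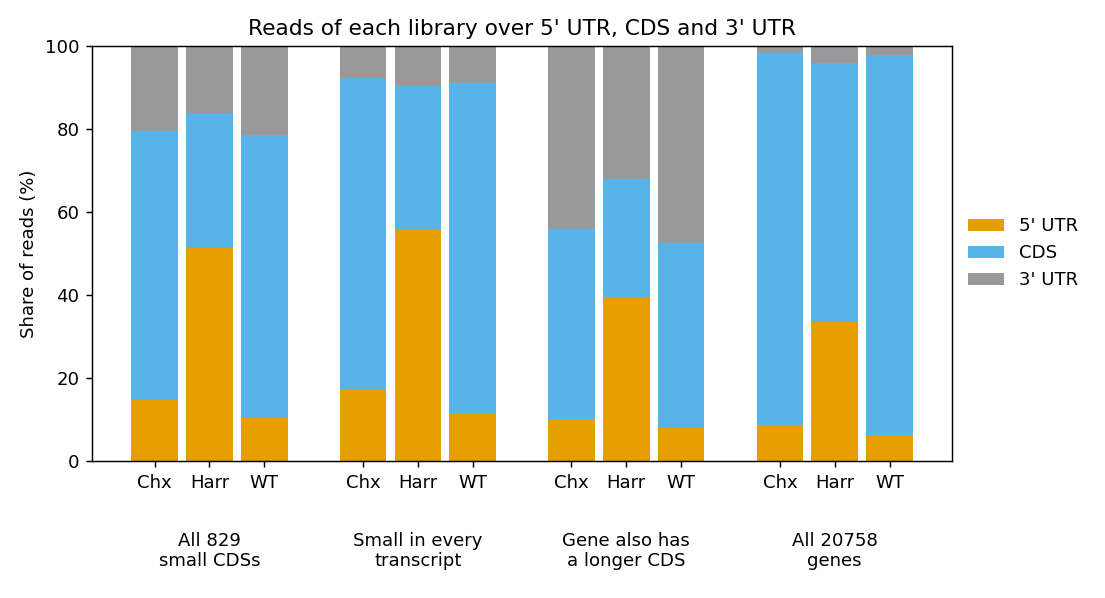
Share of the reads, in percent, in the 5′ UTR (orange), CDS (blue) and 3′ UTR (grey) for each library, over all small CDS genes, the 2 kinds of small CDS gene and all genes. The 5′ UTR takes 51.2% in Harr over the small CDS genes, and the 3′ UTR takes 32.2% to 47.5% in genes that also have a longer CDS.

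The 3′ UTR shares differed between the 2 kinds of small CDS. In genes with only small CDSs the 3′ UTR took 7.7% (Chx), 9.74% (Harr) and 8.83% (WT) of the reads. In genes that also have a longer CDS it held 44.0%, 32.2% and 47.5%. For all genes it held 1.71%, 4.10% and 2.18%. Psmd2 shows the second kind, with 8190, 1695 and 6475 reads in the 3′ UTR of its small isoform and 630, 379 and 399 in the CDS. Restricted to genes with UTRs free of any CDS, the shares over the small CDS genes were 3.64%, 7.81% and 4.87%. Among the genes tested, the median number of 3′ UTR reads per CDS read was 0.042, 0.285 and 0.072 in Chx, Harr and WT for the first kind and 1.33, 1.08 and 1.42 for the second.

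Within genes, the odds of a read lying in the 5′ UTR rather than the CDS were compared between libraries as a log2 odds ratio, over members whose 5′ UTR and CDS each had 10 reads or more in the pair. The median was 2.68 for Harr to Chx (2.34 to 2.85, 333 genes), 3.46 for Harr to WT (3.27 to 3.65, 325 genes) and 0.74 for Chx to WT (0.61 to 0.88, 330 genes). For all genes it was 2.46, 3.23 and 0.67. The next longer CDSs had higher Harr medians than the small ones. They were 3.145, 4.024 and 0.785 above 300 and up to 400 nt, and 3.199, 3.985 and 0.748 up to 600 nt. By the same limits as above, 292 members (87.7%) were called higher in Harr than in Chx and 302 (92.9%) higher than in WT, against 89.4% and 94.3% of all genes, and none was called lower, against 0.103% and 0.136%. Between Chx and WT 108 (32.7%) were called higher in Chx and 9 (2.73%) lower, against 30.4% and 1.08%. The shares called higher were thus near those of all genes. Of the 9 members called lower between Chx and WT, 7 of 148 (4.73%) also have a longer CDS and 2 of 182 (1.1%) have only small CDSs. Genes with only small CDSs had a median of 2.87 for Harr to Chx (2.69 to 3.10) and those with a longer CDS one of 2.23 (2.03 to 2.62).

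Of the highest changes, Smim18 held 10, 46 and 11 reads in the 5′ UTR and 316, 23 and 398 in the CDS, which for Harr to Chx gives odds that differ by 5.90 on the log2 scale. It was followed by Cks1b (5.46) and Zfp931 (5.42), which rest on 5 and 1 CDS reads in Harr. Between Harr and WT the highest were Rhbdd2 (8.04), Smco4 (7.22) and Stx3 (6.96), which had 5, 1 and 2 reads in the 5′ UTR in WT and 9, 3 and 1 in the CDS in Harr. Between Chx and WT the highest were Gng11 (3.98), Smco4 (3.79) and Rhbdd2 (3.70). Gng11 rested on 14 reads in the 5′ UTR in Chx and 1 in WT. The lowest changes between Harr and Chx were those of Gm28374 (−2.09), Selenow (−0.38) and Lsm5 (−0.07), and between Harr and WT those of Gm38393 (−1.24), Gm28374 (−1.19) and Ctxn2 (−0.20). None of these was called, and Gm28374 had 1 read in the 5′ UTR in Harr. Gm38393 was also the lowest between Chx and WT (−4.43), with 2, 1 and 69 reads in a 15-nt 5′ UTR, followed by Gm14326 (−2.19) and Zfp120 (−2.12). Of the CDS words of Gm28374, Lsm5, Gm38393 and Gm14326 between 88.5% and 100% occur in other genes.

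For small CDSs spread over several coding segments, the first segment was compared with the last in the same way. In Nnat the first segment of 72 nt held 16402 (Chx), 4306 (Harr) and 11738 (WT) reads, and the last, of 93 nt, held 9848, 328 and 5373. The log2 odds ratio of first to last was 2.98 ± 0.09 for Harr to Chx and 2.59 ± 0.09 for Harr to WT. In Gng2 the first segment held 2419, 676 and 2213 reads and the last 6151, 287 and 7662, with log2 odds ratios of 2.58 ± 0.11 and 3.03 ± 0.11. Gng3 (1.79 ± 0.10 and 2.81 ± 0.10), Hsbp1 (2.28 ± 0.18 and 3.68 ± 0.19) and Dynll2 (2.04 ± 0.13 and 2.78 ± 0.13) had the same direction. In these 5 genes the Harr reads inside the CDS lay further toward the start than those of either other library. Atp6v0e2 was not called, at 0.24 ± 0.17 and 0.77 ± 0.17.

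Over the members the median log2 odds ratio of first to last segment was 1.42 for Harr to Chx (1.04 to 1.77, 147 genes) and 1.86 for Harr to WT (1.35 to 2.38, 150 genes). Between Harr and Chx 77 members were called higher, against 13.9% of all genes, and 11 lower, against 32.1%, which is 52.4% and 7.48% of the members. Between Harr and WT 90 (60.0%) were called higher and 4 (2.67%) lower, against 24.2% and 20.9%. Over all genes the medians were −0.55 and 0.03. CDSs above 300 and up to 600 nt were close to the small ones, with medians of 1.15 (0.99 to 1.34) and 1.79 (1.65 to 1.92). Between Chx and WT the median was 0.65 (0.48 to 0.74, 160 genes), against 0.57 for all genes, with 48 members called higher and 3 lower, against 27.6% and 1.43% of all genes. With only members whose CDS overlaps no 5′ UTR of another transcript, the Harr medians were 1.39 and 1.77.

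**Figure D5:**
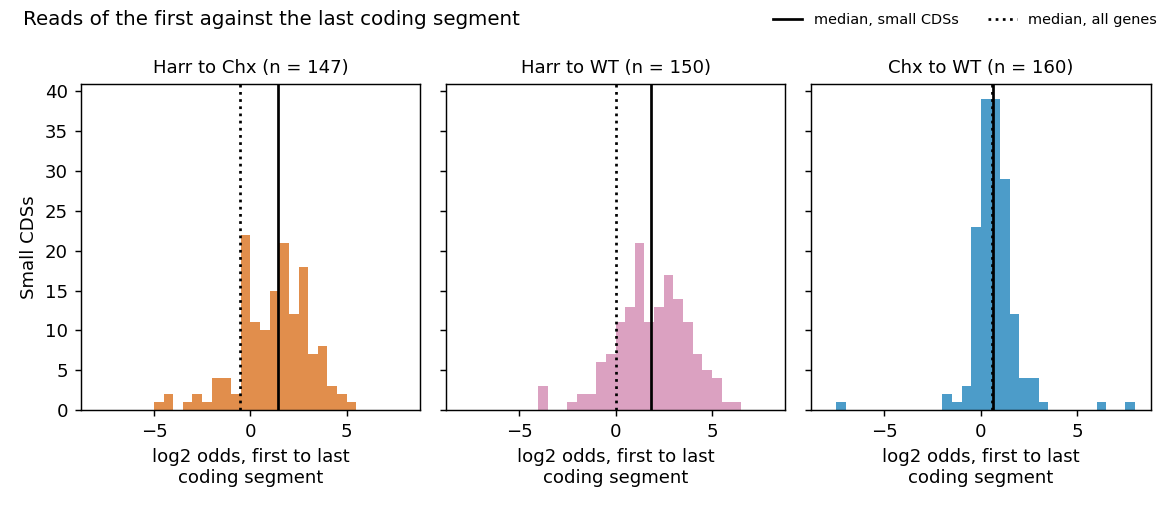
Number of small CDSs by the log2 odds ratio of reads in the first to the last coding segment, for Harr to Chx, Harr to WT and Chx to WT, with the median of the small CDSs (solid line) and of all genes (dotted line). The small CDSs have their median at 1.42 and 1.86 in the comparisons with Harr, to the right of that of all genes, and both medians lie close together for Chx to WT.

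An annotated 5′ UTR of another transcript overlapped the CDS of 224 members (27.0%), against 37.0% of all genes. Among the tested members, the median Harr to Chx ratio was −0.16 (−0.35 to 0.06, 111 genes) with such an overlap and −0.39 (−0.58 to −0.19, 189 genes) without it. For the 81 tested members with only small CDSs, none of the overlaps named so far, no CDS of another gene over their own and at most 10% shared words, it was −0.61 (−0.91 to −0.29), with 25 called lower and 2 higher, beside 13.7% and 4.64% of all genes. Single-segment CDSs, of which 40 were tested, had a median of −0.68 (−1.11 to −0.06), and those of several segments −0.24 (−0.38 to −0.15).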

How the data were processed

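Ribosome-protected fragments (micrococcal nuclease, monosomes) from 3 libraries of mouse cortical neurons were analysed. The free-text descriptions of the samples name other fractions and were not used for grouping. The authors deposited 9 plastid tables, with 5′ UTR, CDS and 3′ UTR of each mm10 GENCODE transcript in each library. Per the file headers, reads of 25 to 100 nt were counted at their 5′ end after removal of rRNA reads and duplicates. The study's methods name Rsubread for its transcript counts and TopHat for its reading frame search, and which of them made the alignments behind these tables is not given in the sources used here. The deposited counts are whole reads per region, and the tables also hold the deposited coverage per nucleotide and the RPKM of the authors, scaled to the library total.

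Members were found on the longest transcript of each gene, and members and gene lists were chosen with earlier results of these data known. RPKM were recomputed from the counts with exact Poisson intervals. For ratios, 0.5 was added to each count, and CDS ratios used at least 100 CDS reads over the 3 libraries. Shares carry Wilson 95% intervals and medians carry distribution-free ones. The libraries carried molecular identifiers per the methods, but how duplicates were recognised is not given in the sources used here. Limits from 3 counts and all intervals except those of medians speak of counting error alone. The first and last coding segments were compared after the data had been seen, as was the setting without CDSs that overlap a 5′ UTR of another transcript. Overlaps, start windows and words of 25 nt came from GENCODE M21. Named genes were the 10 most read members in WT, the 3 highest and 3 lowest changes of each pair among members with at least 200 CDS reads (for 5′ UTR to CDS changes, at least 10 reads in each region), the shortest CDSs, those at the length limit and up to 4 most read members of each list. The ratio test was run on simulated data first. Alternatives were other scales, minimums, an added count of 5, the most read transcript and subsets of members. No protein sequences were used here. Python 3.11.15, numpy 2.4.6, pandas 2.3.3, SciPy 1.17.1 and matplotlib 3.10.9 were used.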

Additional observations from a re-analysis of the deposited data

How the results depend on the processing

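No paired analysis was possible because each treatment had 1 library, and for the same reason leaving out a library was no option. Depth limits Harr most, where 292 members had 10 CDS reads or more, beside 390 (Chx) and 385 (WT). Values below are in the order Chx, Harr, WT for levels, and the causes of the shifts were not tested.

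With the most read transcript in place of the longest, the small CDSs held 1.79%, 1.44% and 2.01% of CDS reads, the 5′ UTR held 15.9%, 54.2% and 12.1% and the 3′ UTR 22.04%, 17.1% and 22.1% of their reads, and the 5′ UTR to CDS density was 0.328, 2.41 and 0.235. The share with a lower 5′ UTR to CDS odds was 0.595% for Harr to Chx and 0.305% for Harr to WT. Restricted to genes with UTRs free of any CDS, the CDS share was 1.54%, 1.37% and 1.78%, the 5′ UTR 16.6%, 55.9% and 11.3%, the 3′ UTR 3.64%, 7.81% and 4.87% and the density 0.271, 2.01 and 0.176. The median log2 odds ratio was 2.98 for Harr to Chx and 3.84 for Harr to WT, and the median CDS ratio −0.54, −0.60 and −0.10 for Harr to Chx, Harr to WT and Chx to WT. In that set 3.09% were called higher in Harr than in Chx, 4.94% higher than in WT, and between Chx and WT 0.617% were called higher and 3.09% lower. With only members whose every coding transcript is small, the CDS share was 1.38%, 1.21% and 1.60%, the 5′ UTR 17.2%, 55.8% and 11.6%, the 3′ UTR 7.70%, 9.74% and 8.83% and the density 0.291, 2.05 and 0.186. The log2 odds ratios were 2.87 and 3.84, the CDS ratios −0.46, −0.56 and −0.092, the share called higher 4.55% for Harr to Chx and 0.0% for Chx to WT, and the share with lower odds in Chx than in WT 1.10%.

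Without genes that share over 10% of their words, the CDS share was 1.72%, 1.53% and 1.89%, the density 0.246, 1.56 and 0.159, the 3′ UTR share 19.7% in Chx and 21.0% in WT and the 5′ UTR share 49.3% in Harr and 10.02% in WT. Without the 10 most read members the CDS share was 1.00%, 0.813% and 1.08%, the 5′ UTR 16.7%, 52.2% and 10.7%, the 3′ UTR 30.1%, 22.5% and 32.7% and the density 0.399, 2.64 and 0.241. With only members whose CDS overlaps no 5′ UTR of another transcript, a setting chosen after seeing the data, the CDS share was 1.31%, 0.886% and 1.42%, the 5′ UTR 16.6%, 58.4% and 12.5%, the 3′ UTR 16.5%, 14.9% and 17.4% and the density 0.313, 2.77 and 0.225, and 3.17% were called lower in Chx than in WT.

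With library totals as scale, the median CDS ratio was −0.84 for Harr to Chx and −0.87 for Harr to WT, with 43.0% and 43.7% called lower and 2.0% and 3.67% higher. With the mitochondrially encoded reads it was −1.68 and −1.67, with 79.0% and 75.3% called lower and 0.0% and 0.667% higher, and the Chx to WT median changed sign to 0.029. With at least 1000 CDS reads the medians were −0.55, −0.61 and −0.11, and 0.870% were called higher and 0.870% lower in Chx than in WT. With 1 read as the minimum the Harr medians changed sign to 0.019 and 0.011, with 12.6% and 15.5% called lower. With an added count of 5 the Harr to Chx median was −0.14 and the Harr to WT log2 odds ratio 3.02.

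Each called value of a named gene was recomputed under several settings and counted once per setting. Of these recomputed values, 682 kept their direction and side of the limits, 27 kept their direction but were no longer called, and 8 changed sign. The 8 were the Harr to Chx ratios of B230217C12Rik (−0.31), Tmsb4x (−0.10) and Wars (−0.16) on the mitochondrial scale, and, with the most read transcript, the Chx to WT ratio of Naa20 (−0.028), the log2 odds ratios of Serf2 (−0.41 for Harr to Chx and −0.11 for Harr to WT) and the ratios of Wars (−0.30 and −0.35).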

Other observations

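A purine at −3 and a G at +4, the positions of the Kozak context, were found in 86.8% and 41.7% of the small CDSs and in 84.2% and 49.3% of all genes. Among the 300 small CDSs with enough reads these shares were 91.7% and 53.7%, beside 86.7% and 52.7% of all genes with enough reads, and among the 306 without a read they were 87.4% and 27.6%. No ATG stood in the 5′ UTR of 466 small CDS genes (56.3%), against 44.6% of all genes. The tested members with no upstream ATG had a median of 0.196 reads in the 5′ UTR per CDS read in Chx, and those with 1 or more had 0.320. Per nucleotide, and over the summed reads and lengths of each class in place of a median of genes, the order was the opposite. This ratio of 5′ UTR to CDS density was 0.446 and 0.148 in Chx, 3.84 and 0.831 in Harr and 0.316 and 0.094 in WT. Length and summing changed together, so their parts in the reversal cannot be told apart here. Their log2 odds ratios of 5′ UTR to CDS between Harr and Chx were 2.83 (2.41 to 3.10) and 2.72 (2.32 to 2.98), with intervals that overlap. No difference between these classes was tested.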
